A study of Mus musculus with 30 samples.

Results

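Genes of fatty acid oxidation and ketone body synthesis were followed in mouse liver through 39 members, found by gene name in a table of 48440 genes. All 39 had a row of their own, and all 39 were among the 16304 genes that passed the filter on low counts. They were placed by known role in 9 subgroups: the carnitine shuttle (4 genes), fatty acid binding and activation (2), mitochondrial beta-oxidation (11), electron transfer (3), peroxisomal oxidation (5), omega oxidation (4), acyl-CoA thioesterases (5), ketone body synthesis (2) and regulators with other fasting-induced genes (3).

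The livers came from wild-type female C57BL/6 J mice, 8 weeks old when an ALZET osmotic pump was implanted. The pump held ACBP/DBI, the acyl-CoA-binding protein, at 2.5 mg/mL, or phosphate-buffered saline (PBS). Anorexia was brought about by CDDP (cisplatin, which crosslinks DNA) 72 hours after the pump or by CRS, letters the labels leave unexplained, 48 hours after it. The 6 groups of 5 libraries were CDDP+ACBP (cisplatin with the ACBP pump), CDDP (cisplatin), CRS+ACBP (CRS with the ACBP pump), CRS, ACBP (the ACBP pump alone) and PBS (the saline pump alone). CDDP and CRS were read as carrying the saline pump, since the design names only these pump contents. Neither the dose of cisplatin nor the time of liver collection is stated in the sources at hand. No group had its food restricted without CDDP or CRS, so an effect of either cannot be told apart from one of eating less. Whether each library is 1 mouse is not stated in the labels, so all p-values measure library-to-library spread, which may be technical.

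Fatty acids are carried inside hepatocytes by binding proteins, are activated to acyl-CoA and cross into mitochondria on carnitine, where each turn of beta-oxidation shortens the chain and hands electrons to the electron-transferring flavoprotein. Peroxisomes shorten very long and branched chains, microsomal CYP4A enzymes oxidise the far (omega) end, thioesterases release free fatty acids from CoA, and surplus acetyl-CoA becomes ketone bodies. Many of these genes are classical targets of PPARalpha, the nuclear receptor of the fasting liver, which binds direct repeats of AGGTCA together with RXR.

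The libraries held 13957380 to 18479134 reads on genes. Levels are CPM (a gene's share of its library's reads, on the standard scale of that unit) after TMM scaling, which corrects for differences in RNA composition between libraries; the TMM factor was 0.701 in CDDP replicate 5 and 0.920 to 1.19 in the others. Log2 fold changes are from edgeR with an approximate SE, and a member was called higher or lower at a Benjamini-Hochberg adjusted p under 0.05 over all 16304 genes tested. All 12 hepatocyte markers were detected in every group, and their score (mean log2 of CPM plus 1) was 10.9 to 12.4 in single libraries. Skeletal muscle transcripts stood high in 7 libraries (score over 5), of which PBS replicate 2 was highest with 2502 CPM of Acta1. None of the 7 was a CDDP library, but CDDP replicate 5 lay just under the limit (score 4.99, 193 CPM of Acta1). CRS replicate 4, which was counted, had a score of 5.08 and 197 CPM. CDDP replicate 1 had a score of 3.98. ACBP replicate 4 held brain transcripts. In CDDP the summed level of 12 T, NK and B cell markers was 1.45 to 6.64 CPM, against 14.4 to 22.98 CPM in PBS, and that of 8 red blood cell markers was 16.02 to 26.4 CPM, against 266.7 to 479 CPM in PBS, with Slc4a1 at 0 in every CDDP library and in 2 PBS libraries. The 10 stellate cell markers summed to 136 to 308 CPM in CDDP, against 361 to 729 CPM in PBS. The 12 Kupffer cell markers summed to 248 to 349 CPM, against 363 to 445 CPM. The 10 sinusoidal endothelium markers summed to 166 to 256 CPM, against 266 to 328 CPM. None of these sums overlapped, but the scores of the stellate cell, Kupffer cell and endothelium sets did. Scores of T, NK and B cells were 0.160 to 0.599 in CDDP, against 0.984 to 1.41 in PBS, without overlap. Those of red blood cells were 0.953 to 1.19 in CDDP, against 3.48 to 3.96 in PBS, also without overlap. The scores in CDDP and PBS were 2.23 to 4.09 against 4.04 to 4.84 for stellate cells and 3.72 to 4.33 against 4.14 to 4.67 for Kupffer cells. For endothelium they were 3.36 to 4.61 against 4.20 to 4.44. The endothelium sum was also below PBS in CRS, at 192 to 239 CPM. What part these other cells have in the member levels was not tested. In bulk liver, fewer cells of a type and less RNA per cell cannot be told apart.

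Fabp1, the liver fatty acid-binding protein, was the most abundant member per length in PBS, with 7092 ± 1480.0 CPM per kilobase of exon (SD, n = 5). The peroxisomal thiolase gene Acaa1b was next with 840.2 ± 163 CPM per kilobase, and Acot2, a mitochondrial thioesterase gene, was lowest with 2.23 ± 0.678 CPM per kilobase. In an F test over all 6 groups, 14 of 39 members differed, beside 34.2% of all genes tested. Acaa1b (adjusted p = 5.05e-07), Acsl1 (adjusted p = 5.67e-06) and Fabp1 (adjusted p = 1.24e-05) had the smallest p-values. Without CDDP replicate 5 the count was 6, and the share of all genes in that fit is not given here. As the map of single libraries shows, most of the contrast lay in the CDDP libraries, where the members differed from one library to the next.

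**Figure D1:**
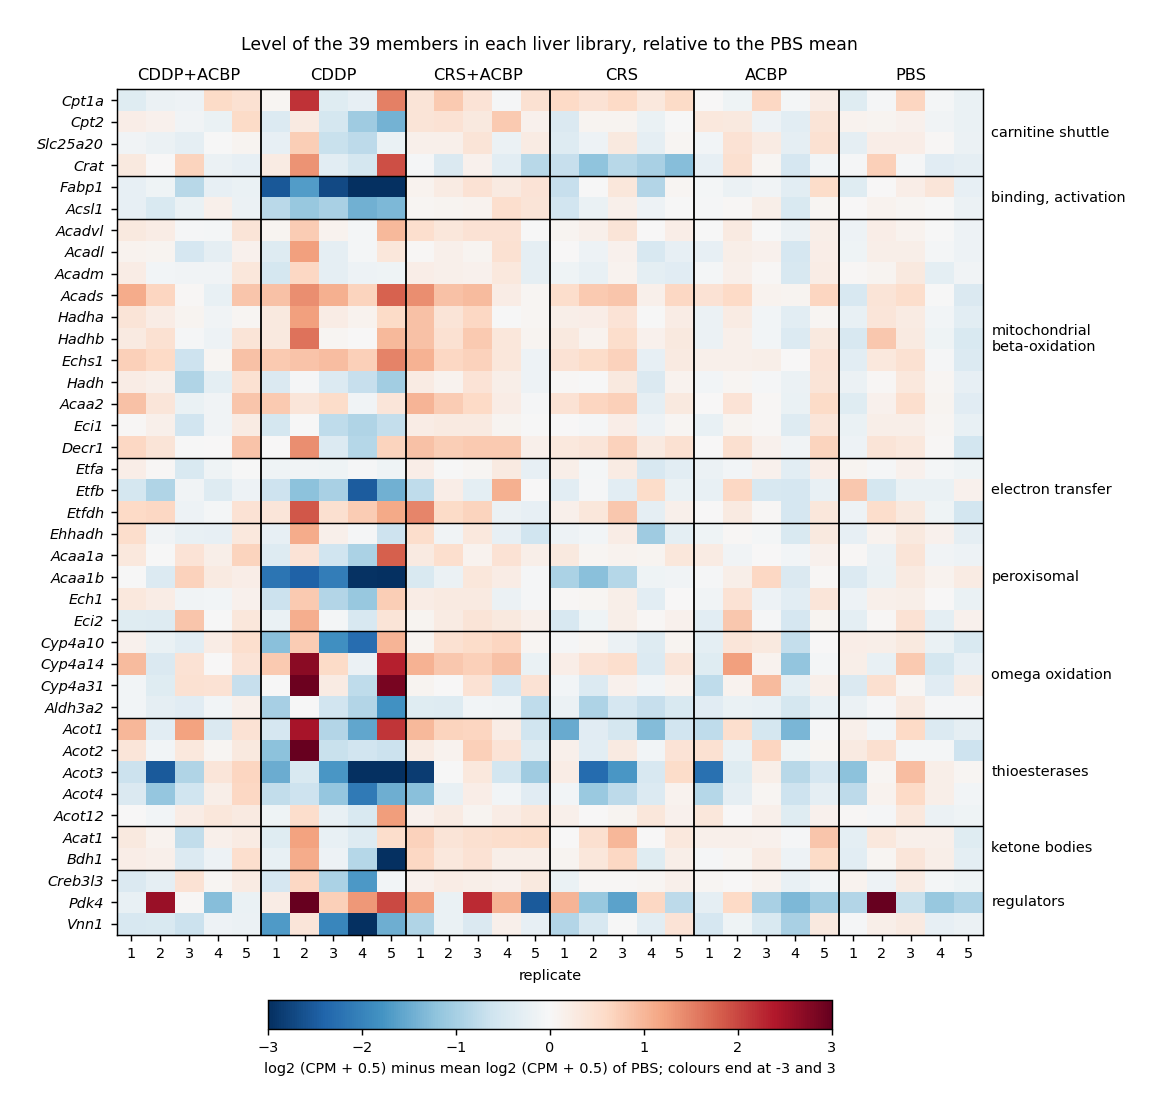
Level of each member in each of the 30 liver libraries as log2 of CPM plus 0.5 minus the PBS mean of the same quantity (colour; rows are members by subgroup, columns are replicates 1 to 5 of each group). Fabp1, Acsl1 and Acaa1b are low in all 5 CDDP libraries, CDDP replicates 2 and 5 are high in many other members, and the CDDP+ACBP columns lie near those of ACBP and PBS.

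Cisplatin was first set against PBS under the saline pump. Fatty acid binding and activation fell in every CDDP library, and so did the peroxisomal thiolase Acaa1b: Fabp1 fell to 576 CPM on average, about 0.147 times its level in PBS, and Acaa1b to 0.168 times. The short-chain mitochondrial enzymes Acads and Echs1 rose about 2.24 and 1.93 times. In all, 10 of 39 members were higher in CDDP, beside 23.1% of all genes tested, and 10 were lower, beside 18.3%. The counts are near these shares and are not a result about the 39 genes as a set; the median log2 fold change of the members was 0.23, and that of all genes tested 0.02. With RLE scaling 7 members were higher, beside 21.7% of all genes tested, and 11 lower, beside 19.7%.

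Fabp1 (ENSMUSG00000054422.7, chromosome 6, 71199827 to 71205023, plus strand) had 661, 1213, 589.5, 299 and 117 CPM in CDDP replicates 1 to 5, against 3014, 3905, 4434, 4997 and 3260 CPM in PBS replicates 1 to 5. Every CDDP library lay below every PBS library (log2 fold change -2.77 ± 0.37, adjusted p = 2.09e-06). Acsl1 (ENSMUSG00000018796.13, chromosome 8, 46471037 to 46536051, plus strand), which activates long-chain fatty acids to acyl-CoA, had 301, 239, 267, 194 and 207 CPM in CDDP, against 533, 566, 554, 524 and 471 CPM in PBS. Its groups did not overlap either (log2 fold change -1.13 ± 0.16, adjusted p = 3.90e-06). Acaa1b (ENSMUSG00000010651.4, chromosome 9, 119148023 to 119157093, minus strand), a thiolase that ends each turn of peroxisomal beta-oxidation, had 355, 303, 387, 207 and 134 CPM in CDDP, against 1223, 1411, 1947, 1749 and 1913 CPM in PBS, again with no overlap (log2 fold change -2.57 ± 0.28, adjusted p = 2.34e-07). Of the 50-base windows of the Acaa1b transcript, 35.6% also occur in another gene's transcript, chiefly its neighbour Acaa1a, so the split of reads between them is uncertain; Acaa1a had 218, 383, 187, 148 and 984 CPM in CDDP, against 290.5, 254, 373, 266 and 259 CPM in PBS, and was not called.

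The 250 bases before the RefSeq start sites (build GRCm38.p6, read 5′ to 3′ on the gene's strand) are shown for Fabp1, Acaa1b and Acsl1, the members that fell with the smallest p-values, and for Echs1 and Acads, the members that rose without overlap. Capitals mark the PPAR-type direct repeat (AGGNCA, any 1 base, AGGNCA) and its single unit AGGTCA, searched on both strands; a unit inside the repeat counts for both.
Fabp1, chr6:71199629-71199878, plus strand: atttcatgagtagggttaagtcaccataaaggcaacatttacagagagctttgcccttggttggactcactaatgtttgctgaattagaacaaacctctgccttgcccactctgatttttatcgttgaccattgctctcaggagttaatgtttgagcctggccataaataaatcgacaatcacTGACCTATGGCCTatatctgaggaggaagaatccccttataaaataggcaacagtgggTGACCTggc
Acaa1b, chr9:119157094-119157343, minus strand: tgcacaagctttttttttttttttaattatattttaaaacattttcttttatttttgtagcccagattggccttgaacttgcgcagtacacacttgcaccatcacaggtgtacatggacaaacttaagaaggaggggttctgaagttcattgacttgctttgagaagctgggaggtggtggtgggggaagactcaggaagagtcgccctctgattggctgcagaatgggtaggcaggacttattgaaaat
Acsl1, chr8:46470787-46471036, plus strand: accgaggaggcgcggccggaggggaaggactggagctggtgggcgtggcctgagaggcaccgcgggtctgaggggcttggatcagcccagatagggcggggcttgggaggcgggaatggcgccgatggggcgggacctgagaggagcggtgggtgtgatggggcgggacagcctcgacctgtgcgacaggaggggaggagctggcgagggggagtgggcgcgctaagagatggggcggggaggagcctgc
Echs1, chr7:140116422-140116671, minus strand: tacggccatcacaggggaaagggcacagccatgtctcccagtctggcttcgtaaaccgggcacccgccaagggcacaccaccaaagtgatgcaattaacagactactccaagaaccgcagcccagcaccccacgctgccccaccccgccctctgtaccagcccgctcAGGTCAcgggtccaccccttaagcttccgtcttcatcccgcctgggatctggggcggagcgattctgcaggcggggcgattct
Acads, chr5:115119347-115119596, minus strand: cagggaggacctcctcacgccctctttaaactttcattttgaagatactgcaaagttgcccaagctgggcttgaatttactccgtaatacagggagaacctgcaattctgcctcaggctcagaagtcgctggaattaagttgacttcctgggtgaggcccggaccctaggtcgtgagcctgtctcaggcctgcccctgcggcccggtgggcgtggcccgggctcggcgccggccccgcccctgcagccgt
The RefSeq table held windows of 300 bases (250 before the start site and 50 after it) for 31 of the 39 members, all but Crat, Acaa2, Decr1, Cyp4a10, Cyp4a14, Cyp4a31, Acat1 and Vnn1. The repeat was found in 1 member, Fabp1, with its first base at position -67 from the start site and the sequence AGGCCATAGGTCA on the opposite strand; it occurs in a window of 0.451% of all 27025 genes in the table. Fabp1 is a textbook target of PPARalpha. The exact repeat (AGGTCA, any 1 base, AGGTCA) was in 0 members, against 0.0481% of all genes in the table, and the unit AGGTCA was in 9 of 31 members, against 18.1% of all genes in the table. Acsl1 has a further start site in the table, not shown. A match is a description of these letters only.

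In the carnitine shuttle, Cpt1a and Crat were called higher, and neither separated the groups. Cpt1a (ENSMUSG00000024900.4, chromosome 19, 3322334 to 3385733, plus strand), the rate-limiting transferase of the outer mitochondrial membrane, had 152, 657, 112, 124 and 416 CPM in CDDP, against 112, 143, 229, 140.3 and 128 CPM in PBS (log2 fold change 0.96 ± 0.34, adjusted p = 0.0237). CDDP replicates 2 and 5 stood above every PBS library and the other 3 lay inside or below the PBS range. Crat, the carnitine acetyltransferase, had 64.9, 139, 43.8, 37.5 and 210.5 CPM in CDDP, against 52.6, 88.9, 52.5, 42.6 and 45.1 CPM in PBS (log2 fold change 0.81 ± 0.33, adjusted p = 0.0480). Replicates 2 and 5 again stood highest, and the highest PBS value was that of the muscle-rich replicate 2. Cpt2, the inner-membrane transferase, and Slc25a20, the acylcarnitine carrier, were not called (log2 fold changes -0.52 and -0.14).

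Among the 11 genes of mitochondrial beta-oxidation, 5 were higher and 2 lower in CDDP. Acads (ENSMUSG00000029545.13, chromosome 5, 115110299 to 115119346, minus strand), the short-chain acyl-CoA dehydrogenase, had 102, 149, 117, 89.5 and 193 CPM in CDDP, against 40.1, 73.6, 80.2, 55.5 and 41.4 CPM in PBS (log2 fold change 1.16 ± 0.27, adjusted p = 0.00109). Echs1 (ENSMUSG00000025465.13, chromosome 7, 140105710 to 140116476, minus strand), the short-chain enoyl-CoA hydratase, had 180.1, 187, 197, 171 and 294 CPM in CDDP, against 83.4, 129.6, 142, 102 and 77.6 CPM in PBS (log2 fold change 0.95 ± 0.24, adjusted p = 0.00278). In both genes every CDDP library lay above every PBS library; over all genes tested, 13.3% did so and 11.4% lay wholly below. Eci1, an isomerase needed for unsaturated chains, had 76.1, 109, 64.6, 58.4 and 66.5 CPM in CDDP, against 96.5, 125.0, 124.7, 115 and 94.5 CPM in PBS (log2 fold change -0.57 ± 0.17, adjusted p = 0.00764), and only CDDP replicate 2 lay inside the PBS range. Acadvl, the very-long-chain dehydrogenase, and Hadha and Hadhb, the subunits of the trifunctional protein, were higher with log2 fold changes of 0.42, 0.52 and 0.65, and Hadh, the short-chain hydroxyacyl-CoA dehydrogenase, was lower (-0.50). Their groups overlapped, and so did those of Acadl, Acadm, Acaa2 and Decr1, which were not called (log2 fold changes from -0.05 to 0.38). Exons of Acadvl overlap those of Dvl2 on the opposite strand, those of Acsl1 overlap Gm45244 and, over fewer bases, those of Crat, Hadha, Echs1, Etfdh and Acaa1b overlap other opposite-strand genes; no source at hand states the strand setting of the counting.

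The 3 electron transfer genes differed in direction: Etfdh was higher in CDDP, Etfb was lower and Etfa was not called. Etfdh, which passes the electrons on to ubiquinone, had 58.2, 164, 62.5, 76.1 and 99.9 CPM in CDDP, against 40.7, 65.2, 55.4, 40.9 and 30.4 CPM in PBS (log2 fold change 0.98 ± 0.30, adjusted p = 0.00961); 3 CDDP libraries lay above the PBS range. Etfb, the beta subunit of the flavoprotein, had 18.9, 12.4, 14.8, 4.84 and 10.7 CPM in CDDP, against 51.9, 20.4, 25.8, 25.6 and 32.1 CPM in PBS, with no overlap (log2 fold change -1.34 ± 0.33, adjusted p = 0.00173). Etfa, the alpha subunit, was not called and held 232 to 249.2 CPM in CDDP, against 233 to 277 CPM in PBS. The Etfb value is uncertain, since 678 of its exon bases overlap genes on the same strand, chiefly Gm45233, and 67.3% of its 50-base windows occur in another gene.

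Beside Acaa1b, none of the other peroxisomal genes was called: Ehhadh, the bifunctional enzyme, Acaa1a, and the isomerases Ech1 and Eci2 had log2 fold changes from 0.002 to 0.41. In omega oxidation, Cyp4a14 had 626, 2371, 536, 319 and 1838 CPM in CDDP, against 409, 311, 626, 253 and 307 CPM in PBS (log2 fold change 1.58 ± 0.43, adjusted p = 0.00475), and Cyp4a31 had 11.5, 93.2, 14.05, 6.71 and 87.2 CPM in CDDP, against 8.61, 16.5, 12.2, 9.18 and 13.9 CPM in PBS (log2 fold change 1.81 ± 0.49, adjusted p = 0.00388). In both, replicates 2 and 5 stood far above the PBS range and the other 3 CDDP libraries within or near it. Cyp4a10 had 198, 794, 131, 95.6 and 961 CPM in CDDP, against 538, 528, 576, 413 and 342 CPM in PBS; here replicates 2 and 5 lay above the PBS range and the other 3 below it, and the log2 fold change was -0.14 ± 0.40, not called. Reads of the Cyp4a genes can be shared: 30.5% of the windows of Cyp4a10 and 21.7% of those of Cyp4a31 occur in another gene. Aldh3a2, the fatty aldehyde dehydrogenase of the next step, had 137, 270.5, 183, 147 and 76.6 CPM in CDDP, against 242, 264, 327, 265 and 266 CPM in PBS, and fell with replicate 2 alone in the PBS range (log2 fold change -0.75 ± 0.21, adjusted p = 0.00506).

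The peroxisomal thioesterases Acot3 and Acot4 were lower in CDDP and the other 3 thioesterases were not called. Acot4 had 32.5, 34.8, 23.8, 12 and 19.1 CPM in CDDP, against 31.3, 58.2, 81.9, 60.8 and 50.9 CPM in PBS (log2 fold change -1.21 ± 0.32, adjusted p = 0.00355). Acot3 had 33.6, 68.7, 27.8, 11.5 and 5.49 CPM in CDDP, against 40.2, 99.2, 179, 107 and 98.6 CPM in PBS (log2 fold change -1.83 ± 0.64, adjusted p = 0.0224). For Acot4 3 CDDP libraries, and for Acot3 4, lay below the PBS range. Exons of both overlap those of Gm49366 on the same strand, and reads there cannot be assigned to one gene. Acot2 reached 48.4 CPM in CDDP replicate 2 and was 1.71 to 3.02 CPM in the other 4, against 2.88 to 6.81 CPM in PBS. Acot1, the cytosolic form, had 88.03 CPM in CDDP replicate 2 and 69.5 CPM in replicate 5, and at most 10.7 CPM in the other 3, against 11.4 to 23.7 CPM in PBS. Acot12, a cytosolic acetyl-CoA hydrolase, had 61.8 to 203 CPM in CDDP, against 74.98 to 106 CPM in PBS (log2 fold change 0.33 ± 0.21). Acot1 to Acot3 share 18.7% to 27.7% of their 50-base windows with other genes, chiefly other Acot genes (Acot5 among them) and, for Acot3, Gm49366.

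Neither ketone body member was called. Acat1, the mitochondrial acetoacetyl-CoA thiolase, had 132, 394, 145, 129 and 245 CPM in CDDP, against 139.6, 213, 189.9, 190.2 and 132 CPM in PBS (log2 fold change 0.27 ± 0.26). Bdh1, which makes beta-hydroxybutyrate, had 129.9, 331, 136, 84.3 and 16.7 CPM in CDDP, against 123, 158, 196, 171 and 123 CPM in PBS (log2 fold change -0.14 ± 0.37). Replicate 2 stood above the PBS range in both, and replicate 5 was the lowest of all libraries for Bdh1. Of the regulators, Vnn1, a pantetheinase, fell with 12.6, 54.4, 10.5, 4.74 and 14.9 CPM in CDDP, against 41.3, 47.6, 51.4, 35.5 and 37.6 CPM in PBS (log2 fold change -1.14 ± 0.38, adjusted p = 0.0177). Replicate 2 lay above the PBS range and the other 4 below it. Pdk4, the kinase that shuts off pyruvate dehydrogenase, and Creb3l3, a liver transcription factor of fasting, were not called (log2 fold changes 1.02 and -0.33). Pdk4 had 77.02 CPM in PBS replicate 2, the muscle-rich library, and at most 3.50 CPM in the other PBS libraries.

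**Figure D2:**
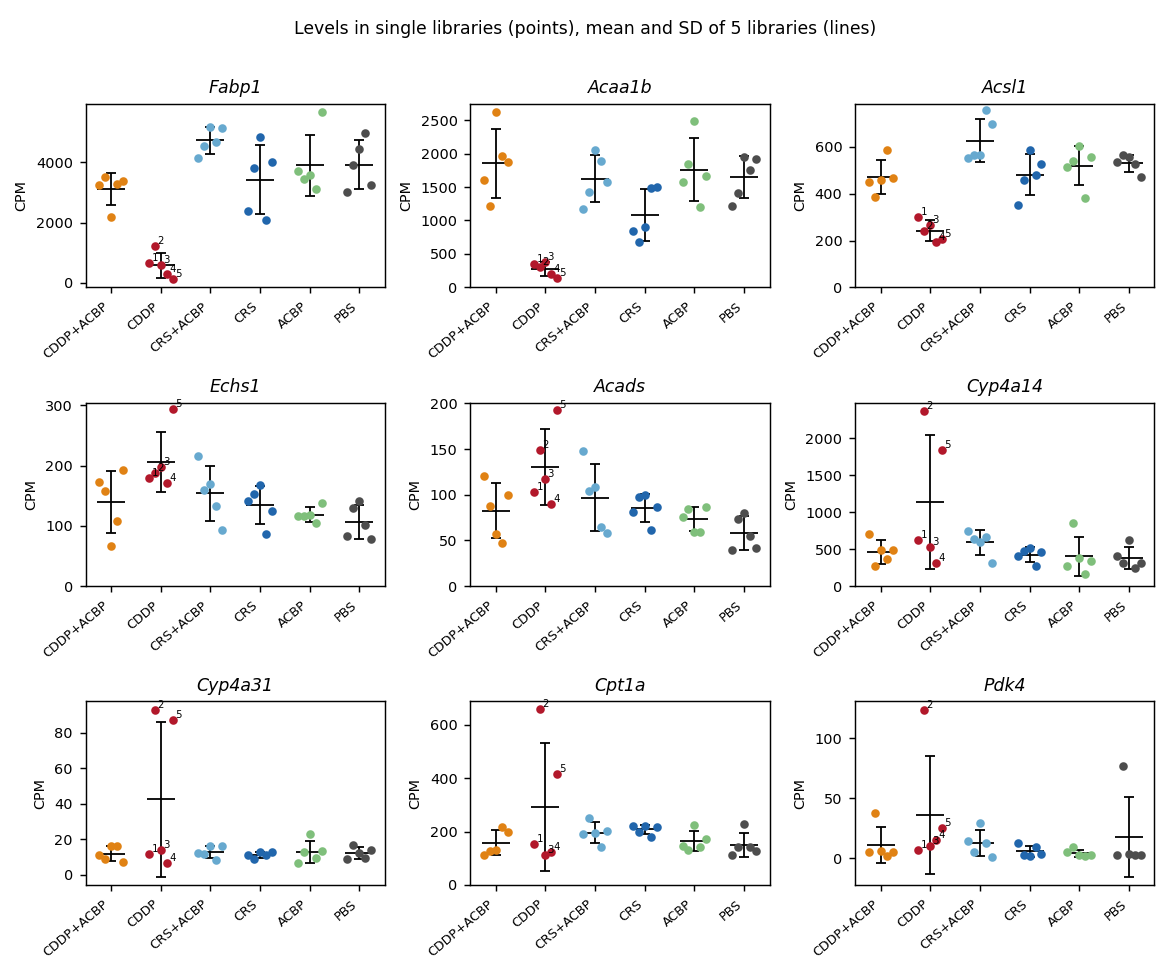
CPM of 9 members in each library (points; lines give the mean and SD of the 5 libraries of a group, and digits number the CDDP replicates). Fabp1, Acaa1b and Acsl1 are low in all CDDP libraries, Echs1 and Acads high in all, while Cyp4a14, Cyp4a31 and Cpt1a are high in CDDP replicates 2 and 5 and Pdk4 in CDDP replicate 2 and PBS replicate 2.

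The CDDP libraries differed among themselves in most members. The ratio of the highest to the lowest library had a median of 3.29 over the 39 members in CDDP, against 1.61 to 1.77 in the 5 other groups, and passed 2 in 34 members in CDDP, against 9 to 13. Over the 10304 genes averaging 5 CPM or more, the median ratio was 2.04 in CDDP, against 1.45 to 1.81 in the other groups. Of the 39 members, 27 were highest in CDDP replicate 2 and 7 in replicate 5, where 17.98% and 29.5% of all genes tested were highest. In 23 members both replicates lay above the other 3, as did 18.5% of all genes tested. Replicate 4 was lowest in 24 members, where 17.5% of all genes tested were. Replicates 2 and 5 did not move alike in every member: Cpt2, Fabp1, Hadh, Ehhadh, Aldh3a2, Acot3 and Bdh1 were highest in replicate 2 and lowest in replicate 5. Bdh1 had 331 CPM in replicate 2 and 16.7 CPM in replicate 5. Cdkn1a, which p53 switches on after DNA damage, was at 154 to 456 CPM in the 5 CDDP libraries, with 415 CPM in replicate 2 and 456 CPM in replicate 5, and at most 6.46 CPM in PBS.

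**Figure D3:**
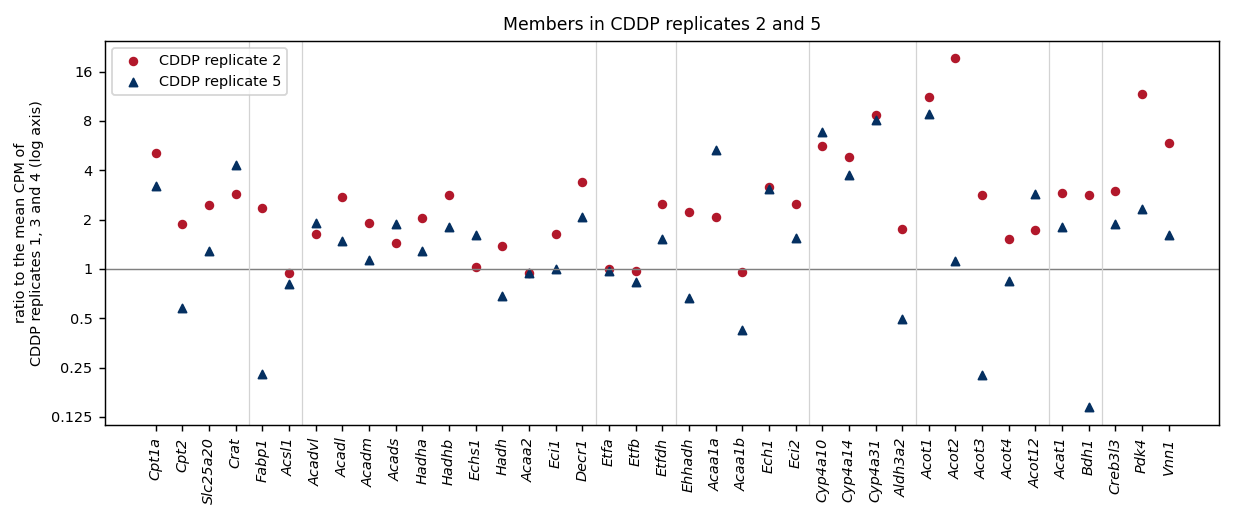
CPM of each member in CDDP replicate 2 (circles) and replicate 5 (triangles) as a ratio to the mean CPM of CDDP replicates 1, 3 and 4, on a log axis, members in subgroup order. The ratio exceeds 2 in 24 members in replicate 2 and in 11 in replicate 5, is largest for Acot2 in replicate 2 (19.3), and is lowest for Bdh1 in replicate 5 (0.143).

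Of the 10 higher calls 2 were kept without CDDP replicates 2 and 5, and of the 10 lower calls 9 were, all but Hadh. This count without CDDP replicates 2 and 5, chosen after their values were seen, left Acads and Echs1 as the 2 of 39 members higher, beside 16.2% of all genes tested in that fit, and gave 16 lower, beside 13.4%. Both libraries were left out because several members stood apart in them, so nothing is read from how these counts compare with the shares. In that fit Cpt1a, Crat and Cyp4a31 had log2 fold changes of -0.23, -0.22 and -0.18. The members called lower then included Cyp4a10 (log2 fold change -1.77, adjusted p = 1.92e-05), Ech1 (-0.90, adjusted p = 4.54e-04), Creb3l3 (-0.996, adjusted p = 4.88e-04) and Vnn1 (-2.22, adjusted p = 1.43e-05). The libraries were chosen on values of the members, so these adjusted p-values are not read as tests of an effect of cisplatin. Leaving out single libraries gave 4 members higher without CDDP replicate 2, 5 without PBS replicate 1 or PBS replicate 5, 6 without PBS replicate 4 and 7 to 12 without any other, and 8 to 14 lower. Shares of all genes in these single-library fits are not given here, so the counts cannot be set against them. Without the 8 muscle- or brain-rich libraries, 9 members were higher, beside 19.4% of all genes tested in that fit, and 9 lower, beside 16.6%. Fabp1, Acsl1, Eci1, Etfb, Acaa1b, Aldh3a2 and Acot4 stayed lower, and Acads and Echs1 stayed higher, under every alternative that was run.

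The ACBP pump was then compared with the saline pump in mice given cisplatin. In CDDP+ACBP, Acaa1b was at 6.69 times, Fabp1 at 5.40 times and Acsl1 at 1.94 times its level in CDDP, and all 3 rose. Cpt1a, Cyp4a14 and Cyp4a31 were lower in CDDP+ACBP. In all, 8 of 39 members were higher, beside 14.9% of all genes tested, and 3 were lower, beside 18.8%; whether these shares differ from those of all genes was not tested. This comparison and the one of CDDP with PBS share the 5 CDDP libraries, so each set of values is given on its own.

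Acaa1b had 1609, 1211, 2620, 1957 and 1874 CPM in CDDP+ACBP, against 134 to 387 CPM in CDDP (log2 fold change 2.74 ± 0.28, adjusted p = 1.77e-07). Fabp1 had 3241, 3513, 2171, 3270 and 3370 CPM in CDDP+ACBP, against 117 to 1213 CPM in CDDP (log2 fold change 2.43 ± 0.36, adjusted p = 1.67e-05). Acsl1 had 449, 385, 459.6, 587 and 468 CPM in CDDP+ACBP, against 194 to 301 CPM in CDDP (log2 fold change 0.96 ± 0.16, adjusted p = 5.16e-05). In these 3 members every CDDP+ACBP library lay above every CDDP library, as in 6.02% of all genes tested. Cpt2 had 137, 129, 110.2, 104 and 177 CPM in CDDP+ACBP, against 89.4, 142, 82.4, 56.5 and 43.8 CPM in CDDP (log2 fold change 0.66 ± 0.22, adjusted p = 0.0200), and CDDP replicate 2 alone of its group lay inside the CDDP+ACBP range. Eci1, Etfb, Aldh3a2 and Acot4 were also higher, with log2 fold changes of 0.53, 0.87, 0.63 and 0.99 (adjusted p from 0.0150 to 0.0381), in groups that overlapped. Of the 8 higher calls, only those of Acaa1b, Fabp1 and Acsl1 held under every alternative that was run. Cpt2, Eci1, Etfb, Aldh3a2 and Acot4 were not called in a fit of only the groups compared.

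Cyp4a31 had 11.05, 9.03, 16.2, 16.1 and 7.13 CPM in CDDP+ACBP, against 11.5, 93.2, 14.05, 6.71 and 87.2 CPM in CDDP (log2 fold change -1.83 ± 0.49, adjusted p = 0.00471). Cyp4a14 had 702, 267, 490.1, 362 and 485 CPM in CDDP+ACBP, against 319 to 2371 CPM in CDDP (log2 fold change -1.30 ± 0.43, adjusted p = 0.0202). Cpt1a had 113, 129, 131, 218 and 199 CPM in CDDP+ACBP, against 112 to 657 CPM in CDDP (log2 fold change -0.89 ± 0.34, adjusted p = 0.0410). In all 3 the CDDP+ACBP libraries lay below CDDP replicates 2 and 5. Of the other CDDP libraries, at most 152 CPM of Cpt1a was measured, and CDDP+ACBP replicates 4 and 5 stood above that value. Without CDDP replicates 2 and 5, none of the 3 was lower, and the log2 fold changes of Cpt1a and Cyp4a31 were 0.29 and 0.15. In that fit 16 members were higher, beside 10.1% of all genes tested in it. Replicates 2 and 5 were left out for their values in the members, so nothing is read from this count against that share. With single libraries left out, the members higher numbered 4 without CDDP replicate 4 or CDDP+ACBP replicate 5, and 6 to 12 otherwise. The members lower numbered 1 without CDDP replicate 2 or CDDP replicate 5, 6 without CDDP replicate 1, and 5 without CDDP replicate 3, CDDP replicate 4, CDDP+ACBP replicate 5 or CRS+ACBP replicate 1. Shares of all genes in the fits without single libraries are not given here.

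Cdkn1a was 5.12 to 63.2 CPM in CDDP+ACBP, against 154 to 456 CPM in CDDP, and its groups did not overlap. The summed T, NK and B cell markers were 11.6 to 28.5 CPM in CDDP+ACBP, against 1.45 to 6.64 CPM in CDDP, and the red blood cell markers 172 to 1237 CPM, against 16.02 to 26.4 CPM. Stellate cell markers summed to 338 to 521 CPM in CDDP+ACBP, against 136 to 308 CPM in CDDP. Their scores overlapped (3.79 to 4.78 against 2.23 to 4.09). Sinusoidal endothelium markers summed to 230.2 to 359 CPM in CDDP+ACBP, against 166 to 256 CPM in CDDP, with overlap. Kupffer cell markers overlapped, at 202 to 284 CPM in CDDP+ACBP and 248 to 349 CPM in CDDP, and were 416 to 506 CPM in ACBP. What part these have in the member levels was not tested.

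Set against the ACBP pump alone, cisplatin with the ACBP pump changed 0 of 39 members by edgeR, beside 0.129% of all genes tested. None of the 39 had an unadjusted p under 0.05, against 790 of 16304 genes tested, and DESeq2 and limma voom called 0 members as well. The smallest p-values were those of Acot1, Pdk4 and Slc25a20. Acot1 had 31.3, 12.2, 36.1, 11.3 and 20.9 CPM in CDDP+ACBP, against 8.90, 22.1, 10.5, 5.61 and 14.99 CPM in ACBP (log2 fold change 0.85 ± 0.55, adjusted p = 0.9997). Pdk4 had 4.93, 37.8, 5.98, 2.11 and 5.06 CPM in CDDP+ACBP, against 4.73, 9.03, 2.75, 1.99 and 2.52 CPM in ACBP (log2 fold change 1.41 ± 1.001), its highest value in the muscle-rich CDDP+ACBP replicate 2. Slc25a20 had 75.8 to 97.7 CPM in CDDP+ACBP, against 76.3 to 126 CPM in ACBP (log2 fold change -0.28 ± 0.21). All 3 overlapped between the groups.

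The effect of cisplatin under the ACBP pump was compared with its effect under the saline pump by an interaction term, the log2 fold change of CDDP+ACBP against ACBP minus that of CDDP against PBS. It was positive in 5 of 39 members, beside 8.38% of all genes tested, and negative in 1, beside 11.3%. For Fabp1 the log2 fold change was -0.33 under the ACBP pump and -2.77 under the saline pump (interaction 2.44 ± 0.49, adjusted p = 0.00133). For Acaa1b it was 0.08 and -2.57 (interaction 2.65 ± 0.38, adjusted p = 7.03e-05), and for Acsl1 -0.14 and -1.13 (interaction 0.99 ± 0.22, adjusted p = 0.00297). These are the 3 members whose interaction held under every alternative that was run. Aldh3a2 (interaction 0.94 ± 0.29, adjusted p = 0.0239) and Acot4 (interaction 1.42 ± 0.45, adjusted p = 0.0258) were positive too, and neither was called once the 8 muscle- or brain-rich libraries were left out (adjusted p = 0.0829 and 0.0587). Cyp4a31 was negative (interaction -1.95 ± 0.68, adjusted p = 0.0413), and without CDDP replicates 2 and 5 its value was 0.05. In that fit 12 members were positive, beside 6.63% of all genes tested in it, and 0 negative, beside 7.08%. Since replicates 2 and 5 were left out for their values in the members, nothing is read from these counts against the shares. Without CDDP replicate 2 alone 9 were positive. The negative count was 0 without PBS replicate 1, 4 or 5, CDDP replicate 2 or 5, ACBP replicate 2, 3 or 5, or CDDP+ACBP replicate 2 or 5. It was 2 without PBS replicate 2 or CDDP replicate 1 or 3, and 3 without CDDP replicate 4. Shares of all genes in the fits that left out 1 library are not given here.

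**Figure D4:**
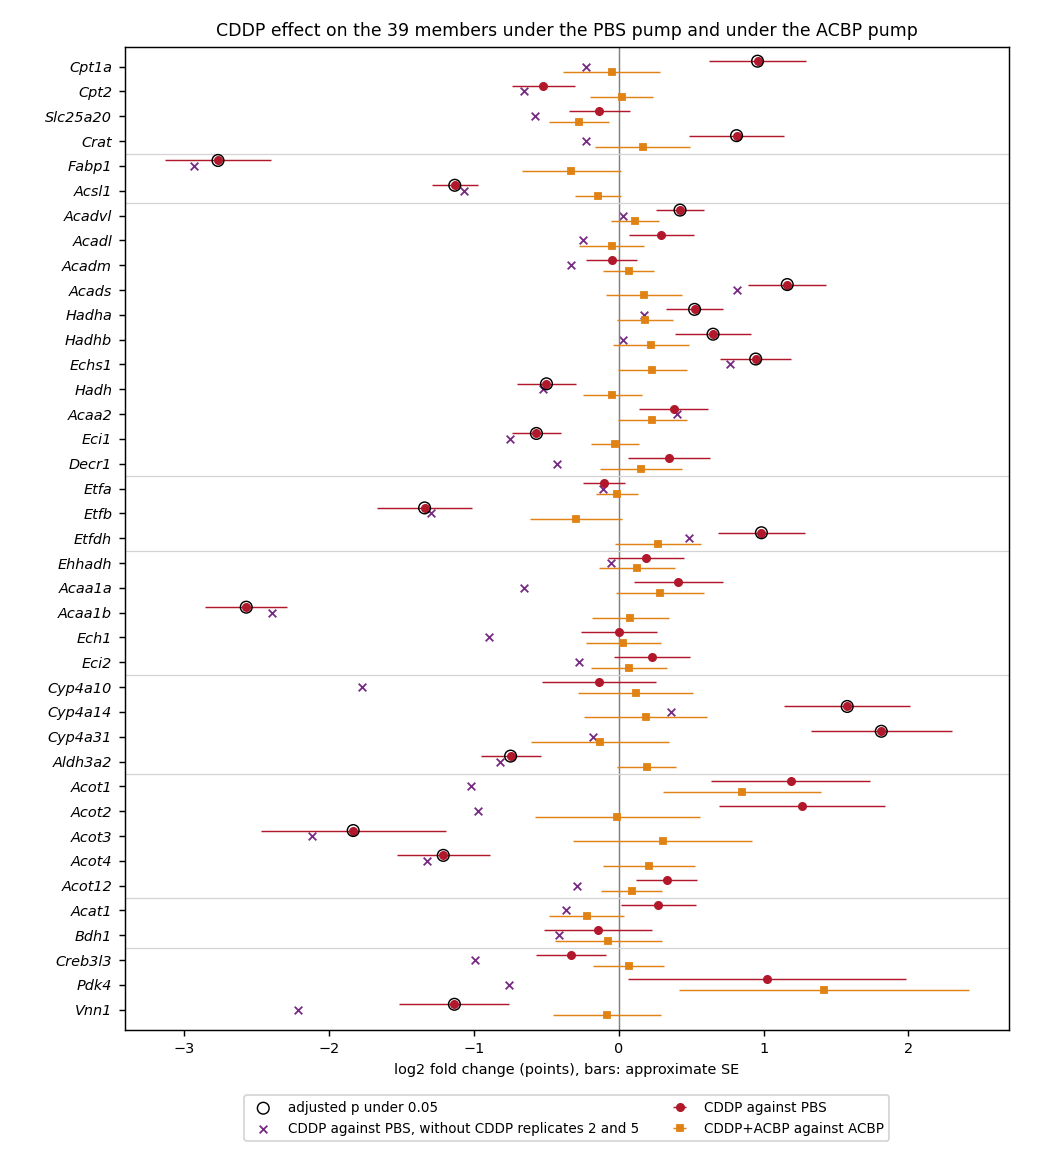
Log2 fold change of each member for CDDP against PBS (circles) and for CDDP+ACBP against ACBP (squares), bars giving the approximate SE and rings an adjusted p under 0.05; crosses give CDDP against PBS without CDDP replicates 2 and 5. Squares lie near 0 with no ring, circles reach -2.77 for Fabp1 and 1.81 for Cyp4a31, and the crosses of Cpt1a, Crat and Cyp4a31 lie left of 0.

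The models of anorexia were compared directly under the saline pump, cisplatin against CRS. In all, 6 of 39 members were higher in CDDP, beside 19.5% of all genes tested, and 5 were lower, beside 15.1%. With RLE scaling 5 were higher, beside 18.4%, and 7 lower, beside 15.9%. Fabp1 had 117 to 1213 CPM in CDDP, against 2389, 3807, 4852, 2097 and 4005 CPM in CRS (log2 fold change -2.57 ± 0.36, adjusted p = 8.05e-06). Acaa1b had 134 to 387 CPM in CDDP, against 839, 679.9, 897, 1486 and 1505 CPM in CRS (log2 fold change -1.96 ± 0.28, adjusted p = 7.26e-06). Acsl1 and Etfb were lower too, with log2 fold changes of -0.99 and -1.24, and in these 4 members every CDDP library lay below every CRS library, as in 9.14% of all genes tested. Eci1 was the fifth (log2 fold change -0.58 ± 0.17, adjusted p = 0.00859), with CDDP replicate 2 inside the CRS range.

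Crat was higher in CDDP, with 64.9, 139, 43.8, 37.5 and 210.5 CPM, against 33.6, 23.2, 30.5, 27.6 and 22.3 CPM in CRS (log2 fold change 1.85 ± 0.34, adjusted p = 1.48e-04), and had no overlap between the groups. It was the only higher member that held under every alternative. Echs1 also had no overlap (171 to 294 CPM in CDDP, against 86.9 to 168 CPM in CRS) but was not called (log2 fold change 0.61 ± 0.24, adjusted p = 0.0505); 10.1% of all genes tested lay wholly above. Pdk4 had 6.94, 124, 9.88, 15.02 and 24.7 CPM in CDDP, against 12.3, 2.39, 1.60, 9.28 and 3.16 CPM in CRS (log2 fold change 2.65 ± 1.02, adjusted p = 0.0442). Acot1 had 10.7, 88.03, 8.18, 4.89 and 69.5 CPM in CDDP, against 5.10, 11.96, 10.5, 5.95 and 10.1 CPM in CRS (log2 fold change 2.05 ± 0.56, adjusted p = 0.00584). Cyp4a31, Cyp4a14 and Etfdh were the other higher members (log2 fold changes 1.91, 1.41 and 0.75). Apart from Crat, CDDP replicate 2 was the highest library in each of these 5. Without CDDP replicate 2, 3 members were higher and 13 lower, and the share of all genes in that fit is not given here.

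CRS against PBS gave 0 calls among the 39 members by edgeR, beside 0.141% of all genes tested. An unadjusted p under 0.05 was found in 4 members, against 1462 of 16304 genes tested. The 3 smallest were those of Crat, Aldh3a2 and Acaa1b, each with a lower mean in CRS. Crat had 33.6, 23.2, 30.5, 27.6 and 22.3 CPM in CRS, against 52.6, 88.9, 52.5, 42.6 and 45.1 CPM in PBS (log2 fold change -1.04 ± 0.33, adjusted p = 0.294). Aldh3a2 had 239, 143, 191, 168 and 197 CPM in CRS, against 242, 264, 327, 265 and 266 CPM in PBS (log2 fold change -0.54 ± 0.21, adjusted p = 0.431). In both, every CRS library lay below every PBS library, as in 2.05% of all genes tested. Acaa1b had 839, 679.9, 897, 1486 and 1505 CPM in CRS, against 1223, 1411, 1947, 1749 and 1913 CPM in PBS, with overlap (log2 fold change -0.61 ± 0.27, adjusted p = 0.519). DESeq2 called 0 members here, while limma voom with quality weights called Crat, Aldh3a2 and Acaa1b lower and Acads higher (adjusted p from 0.00688 to 0.0493), beside 2.64% of all genes lower and 3.07% higher by that tool. Crat was also lower in a fit of these groups alone (log2 fold change -1.06, adjusted p = 0.0184) and in the fit without CDDP replicates 2 and 5 (-1.05, adjusted p = 0.0323).

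The ACBP pump alone gave 0 calls against PBS by edgeR, beside 0% of all genes tested, and 0 members by DESeq2 and limma voom. An unadjusted p under 0.05 was found in 1 member, Pdk4 (log2 fold change -2.08 ± 1.01, adjusted p = 0.999), against 714 of 16304 genes tested. Pdk4 had 4.73, 9.03, 2.75, 1.99 and 2.52 CPM in ACBP, against 2.93, 77.02, 3.50, 2.40 and 2.81 CPM in PBS, with PBS replicate 2 far above all others. Aldh3a2 had 213, 236, 233, 189 and 232 CPM in ACBP, against 242, 264, 327, 265 and 266 CPM in PBS, wholly below it as in 1.02% of all genes tested (log2 fold change -0.31 ± 0.21, adjusted p = 0.999). Acot4 had 29.8 to 56.3 CPM in ACBP, against 31.3 to 81.9 CPM in PBS (log2 fold change -0.43 ± 0.32).

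In mice exposed to CRS, the ACBP pump gave 0 calls against CRS by edgeR, beside 0% of all genes tested, and 0 members by DESeq2 and limma voom. Among the members, 5 had an unadjusted p under 0.05, against 468 of 16304 genes tested. Acsl1 had 551, 564, 566, 755 and 694 CPM in CRS+ACBP, against 352, 459, 587, 478 and 527 CPM in CRS (log2 fold change 0.38 ± 0.16, adjusted p = 0.99996). Acot1 had 30.8, 24.5, 24.5, 18.1 and 9.97 CPM in CRS+ACBP, against 5.10, 11.96, 10.5, 5.95 and 10.1 CPM in CRS (log2 fold change 1.31 ± 0.55, adjusted p = 0.99996). Cpt2 had 155, 161, 146, 204 and 129.6 CPM in CRS+ACBP, against 87.1, 124.8, 126, 104 and 118 CPM in CRS (log2 fold change 0.51 ± 0.22, adjusted p = 0.99996). Only for Cpt2 did every CRS+ACBP library lie above every CRS library, as in 0.319% of all genes tested. The median log2 fold change of the members was 0.21, and that of all genes tested 0.01.

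CRS under the ACBP pump was set against the ACBP pump alone, and 0 members were called by edgeR, DESeq2 or limma voom, beside 0% of all genes tested by edgeR. An unadjusted p under 0.05 was found in 2 members, against 1194 of 16304 genes tested. Hadha had 251, 180.1, 210.2, 137 and 143 CPM in CRS+ACBP, against 121, 163, 129, 110.0 and 142 CPM in ACBP (log2 fold change 0.47 ± 0.19, adjusted p = 0.622). Hadhb and Etfdh followed with log2 fold changes of 0.56 and 0.54. Creb3l3 was the 1 member wholly above, with 358 to 405 CPM in CRS+ACBP, against 283 to 353 CPM in ACBP, as in 0.718% of all genes tested. The interaction of CRS with the ACBP pump gave 0 calls by each of these tools and, by edgeR, beside 0% of all genes tested. There 2 members had an unadjusted p under 0.05, against 388 of 16304 genes tested, and the smallest were Pdk4 (interaction 3.19 ± 1.41, adjusted p = 0.9998), Acot1 (interaction 1.66 ± 0.78) and Acsl1 (interaction 0.41 ± 0.22).

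Other genes of the pathway were followed in 7 lists of 119 genes, 114 of them tested. In CDDP against PBS, 32 were higher, beside 23.1% of all genes tested, and 26 lower, beside 18.3%. In CDDP+ACBP against CDDP, 21 were higher, beside 14.9%, and 23 lower, beside 18.8%. Cisplatin against CRS gave 28 higher, beside 19.5%, and 29 lower, beside 15.1%, the interaction of cisplatin with the pump 11 positive, beside 8.38%, and 16 negative, beside 11.3%, and each of the other 6 comparisons 0. Whether any of these counts, or those by list, differs from the share of all genes was not tested. Ppara, which encodes the receptor itself, had 21.4, 54.7, 16.1, 14.4 and 23.4 CPM in CDDP, against 24.4, 36.4, 36.5, 39 and 33.01 CPM in PBS, and was not called (log2 fold change -0.38 ± 0.31, adjusted p = 0.325). Like many members it was highest in CDDP replicate 2. By list, CDDP against PBS gave 3 higher and 5 lower of 22 tested genes of peroxisomal oxidation, 4 higher and 1 lower of 12 of mitochondrial and propionate oxidation, 2 higher and 3 lower of 7 of ketone bodies, and 6 higher and 5 lower of 19 of uptake, activation and carnitine. Slc27a1, a fatty acid transporter, had 11.8, 14.1, 7.85, 6.45 and 10.6 CPM in CDDP, against 48.9, 47.5, 25.7, 16.6 and 29.5 CPM in PBS (log2 fold change -1.73 ± 0.29, adjusted p = 3.31e-05). Ppargc1b, a coactivator of mitochondrial genes, had 1.25, 2.51, 2.30, 1.11 and 5.81 CPM in CDDP, against 8.91, 7.85, 11.9, 4.44 and 6.88 CPM in PBS (log2 fold change -1.64 ± 0.35, adjusted p = 4.89e-04). In CDDP+ACBP it had 8.97, 7.22, 10.9, 8.71 and 6.35 CPM (log2 fold change against CDDP 1.72 ± 0.35, adjusted p = 4.89e-04), with every library above every CDDP library. Oxct1, which breaks ketone bodies down outside the liver, had 74.2 CPM in the muscle-rich PBS replicate 2 and at most 6.33 CPM in the other PBS libraries, so its lower call in CDDP (log2 fold change -2.99) is given with that value beside it.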

How the data were processed

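RNA was extracted from liver with a column kit and 1.5 µg was made into strand-specific mRNA libraries, per the labels' protocols. The authors deposited raw counts per gene as 1 table. Per the submitters' processing notes, HISAT2 2.2.1, HTSeq 2.0.3 and the mm10 build were used; their settings, including strand, and the annotation release are not stated in those notes or the labels. Of 48440 genes 99.2% matched GENCODE vM21 (mm10), the source of coordinates, and 5 summary lines were left out of library sizes (median 43.4% of reads on no gene and 10.97% not unique).

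The counts were fitted with edgeR 4.0.16 (TMM scaling, its filterByExpr filter and quasi-likelihood F test), all 30 libraries in 1 model with 24 residual degrees of freedom. Adjustment ran within each of 10 comparisons over 16304 genes. The approximate SE was taken as |log2 fold change| over the root of F. The code was tested on simulated data. Alternatives were RLE scaling, no filter, at least 1 CPM in 5 libraries, DESeq2 1.42.0, limma 3.58.1 voom, fits restricted to the compared groups, and leaving out each library. Chosen after seeing the data were fits without 8 libraries rich in muscle or brain transcripts, with the muscle score as a covariate, and without CDDP replicates 2 and 5. No pair of libraries of a group agreed within sampling noise (chi-square per degree of freedom 22.99 or more).

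The members and lists were chosen with earlier results of these data known. Values per library are given for called members, up to 3 per subgroup by adjusted p, and for the 3 of smallest p where none was called; of other pathway genes, up to 3 per direction by fold change. A planned comparison of protein sequences was replaced by shared 50-base transcript windows, since no protein table was used here. Figures were drawn with matplotlib 3.10.9.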

Additional observations from a re-analysis of the deposited data

Results flagged for a closer look

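In 20 of 234 groups of 5 libraries (8.55%) 1 library stood apart from the other 4. Its gap to the nearest exceeded 0.71 of the range. For 5 independent values from a normal distribution, chance gives about 1 in 20. The members were measured in the same libraries, so whether 8.55% differs from chance was not tested. In CDDP, replicate 2 stood highest for Slc25a20 (154 CPM), Acadm (334 CPM), Acot2 (48.4 CPM), Pdk4 (124 CPM) and Vnn1 (54.4 CPM). Replicate 5 of CDDP stood highest for Echs1 (294 CPM) and Acaa1a (984 CPM), and replicate 4 for Etfa (249.2 CPM). In CDDP+ACBP, replicate 3 stood lowest for Fabp1 (2171 CPM) and Acat1 (101 CPM) and was the library with the lowest hepatocyte score, while replicate 2 stood highest for Pdk4 (37.8 CPM). In CRS+ACBP, replicate 5 stood lowest for Decr1 (102 CPM), and in CRS, replicate 4 stood highest for Etfb (43.9 CPM). In ACBP, replicate 5 stood highest for Fabp1 (5675 CPM) and Acat1 (301 CPM), and replicate 2 for Etfb (45.9 CPM). In PBS, replicate 3 stood highest for Cpt1a (229 CPM) and Aldh3a2 (327 CPM), and the muscle-rich replicate 2 for Crat (88.9 CPM) and Pdk4 (77.0 CPM).

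The interaction of cisplatin with the pump was called in 6 of 39 members, beside 19.7% of all genes tested. Whether this count differs from that share was not tested. Fabp1 (2.44), Acsl1 (0.99) and Acaa1b (2.65), in log2 units, were positive under every alternative that was run. Aldh3a2 (0.94) and Acot4 (1.42) were positive too, but neither was called once the 8 muscle- or brain-rich libraries were left out. Cyp4a31 (-1.95) was negative, and its value was 0.054 without CDDP replicates 2 and 5. Its call was kept in 18 of 30 fits that each left out 1 library.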

How the results depend on the processing

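No paired analysis was possible because the labels number the 30 libraries singly and tie none of one group to one of another. With RLE scaling or a filter of 1 CPM in 5 libraries, every count of called members stayed within 1.5 times its value. In CDDP against PBS, the members higher numbered 6 with no filter (beside 11.5% of all genes tested in the same fit), 3 with limma voom (21.3%), 4 with only the groups compared (18.3%) and 2 without CDDP replicates 2 and 5 (16.2%), where 16 were lower (13.4%); limma voom gave 15 lower (17.9%). In CRS against PBS, limma voom gave 1 higher (3.07%) and 3 lower (2.64%), and 1 was lower both with only the groups compared (0.821%) and without CDDP replicates 2 and 5 (0.106%).

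In CDDP+ACBP against CDDP, 3 members were higher with only the groups compared (6.59%) and 16 without CDDP replicates 2 and 5 (10.1%), and 0 were lower with either of these (8.41% and 11.1%) or with limma voom (12.3%). In CDDP against CRS, 1 member was higher with limma voom (17.3%), 3 with only the groups compared (14.5%), 3 without the muscle- or brain-rich libraries (10.4%) and 1 without CDDP replicates 2 and 5 (12.3%), and the members lower numbered 8 with DESeq2 (17.4%), 13 with limma voom (14.3%) and 16 without CDDP replicates 2 and 5 (10.3%). The interaction of CDDP with the pump was positive in 8 members with limma voom (7.28%) and 12 without CDDP replicates 2 and 5 (6.63%). It was negative in 2 with DESeq2 (12.3%) or the muscle covariate (11.2%), and in 0 with limma voom (8.90%), with only the groups compared (8.49%), without the muscle- or brain-rich libraries (5.87%), or without CDDP replicates 2 and 5 (7.08%). Over all 6 groups, 9 members varied without the muscle- or brain-rich libraries, beside 24.4% of all genes tested in the same fit. The cause was not tested. CDDP replicates 2 and 5 were left out because several members stood apart in them, so counts without them are not read against the shares.

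Leaving out 1 library at a time gave 4 to 12 members higher and 8 to 14 lower in CDDP against PBS, and 4 to 12 higher and 1 to 6 lower in CDDP+ACBP against CDDP. It gave 3 to 9 higher and 5 to 13 lower in CDDP against CRS, 4 to 9 positive and 0 to 3 negative interactions with CDDP, 6 to 16 members varying over all groups, and 0 in the comparisons with no call. The shares of all genes in these fits are not given here. The sign turned only without CDDP replicates 2 and 5: Cpt1a -0.23, Crat -0.22 and Cyp4a31 -0.18 against PBS, Cpt1a 0.29 and Cyp4a31 0.15 for CDDP+ACBP against CDDP, Cyp4a31 -0.069 and Acot1 -0.14 against CRS, and Cyp4a31 0.054 in the interaction, all log2. Depth was 13957380 to 18479134 reads on genes per library, and Acot2 had the lowest level per kilobase of the 39 members in PBS (2.23 ± 0.678 CPM per kilobase, SD, n = 5).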

Other observations

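In the list drawn up around lipid droplets and lipases, 7 of 19 tested genes were higher in CDDP than in PBS, beside 23.1% of all genes tested. In the same list 3 were lower, beside 18.3%. Whether each gene of the list is a PPARalpha target was not tested. Hilpda, which inhibits the lipase that empties lipid droplets, had 3.19, 29.5, 2.74, 4.99 and 18.4 CPM in CDDP, against 2.15, 1.22, 1.66, 1.66 and 1.25 CPM in PBS (log2 fold change 2.88 ± 0.51, adjusted p = 7.08e-05 by edgeR). Every CDDP library lay above every PBS library. Cidec, a protein that enlarges lipid droplets, had 3.07, 336, 5.49, 10.99 and 25.1 CPM in CDDP, against 4.72, 5.93, 5.16, 4.56 and 4.50 CPM in PBS (log2 fold change 3.93 ± 0.81, adjusted p = 3.74e-04 by edgeR). Its highest value was in CDDP replicate 2, and CDDP replicate 1 lay below the PBS range. Lpin1, a phosphatidate phosphatase and coactivator, had 60, 72.1, 75.8, 127 and 111 CPM in CDDP+ACBP, against 337, 445, 689, 599 and 879.6 CPM in CDDP, with no overlap (log2 fold change -2.73 ± 0.38, adjusted p = 7.93e-06 by edgeR).

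Fgf21, a hormone of the fasting liver, had 0.398, 91.1, 0.549, 2.82 and 0.484 CPM in CDDP, against 1.14, 2.85, 1.23, 5.24 and 3.50 CPM in PBS, so that replicate 2 alone stood above the PBS range (log2 fold change 2.77 ± 1.0, adjusted p = 0.0271 by edgeR). Acsm5, a medium-chain acyl-CoA synthetase, had 139.7, 101, 198, 185 and 146 CPM in CDDP+ACBP, against 62.1, 35.3, 73.9, 51.4 and 20.7 CPM in CDDP, with no overlap (log2 fold change 1.66 ± 0.23, adjusted p = 6.71e-06 by edgeR). Nudt7, a peroxisomal enzyme that breaks down CoA, had 63.8, 33.8, 46.9, 29.5 and 17.4 CPM in CDDP, against 116, 246, 196, 132 and 165 CPM in CRS, with no overlap (log2 fold change -2.16 ± 0.31, adjusted p = 9.71e-06 by edgeR). In PBS Nudt7 had 68.8 to 101 CPM, between the ranges of CDDP and CRS.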
